A study of Mus musculus with 4 samples.

Results

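The genes Rif1, Lin28a, Myc, Mycn and Zmym2, named in the literature as repressors of the 2-cell-like state of mouse embryonic stem cells, were followed here through a pooled knockout screen. They were picked by name, as reported repressors outside the large chromatin complexes. All 5 were found, among 20380 genes of the screen's 22510 entries, which also include 1132 microRNAs and 998 single guides without a target. The screen used E14, an established mouse embryonic stem cell line, with a tdTomato reporter of MERVL in every cell. MERVL, an endogenous retrovirus, is transcribed at the embryo's 2-cell stage and, in culture, by a small and changing fraction of stem cells. A lentiCRISPRv2 library of Cas9 guides, described as 130209 guides to 20611 genes, was delivered over 24 h with 4 ug/mL polybrene to about 130000000 reporter cells, followed by 48 h in 2 ug/mL puromycin. On day 5 about 500000 reporter-positive cells were sorted. The groups are 2 libraries of these MERVL-positive cells and 2 of total cells, which carry the same reporter, guides and drug treatment and were not selected for the reporter. The titles call the libraries of a group sequencing repeats, so they may come from 1 culture and 1 sort. If so, no p-value given here covers variation between cultures or sorts.

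The 5 proteins are known for different steps in gene control. Rif1 sits on chromatin, where it brings protein phosphatase 1 to replication origins, protects broken DNA ends and, in stem cells, works with H3K9 methyltransferases. Lin28a binds RNA and blocks maturation of the let-7 microRNAs, and in the nucleolus it acts with nucleolin and the corepressor Trim28. Myc and Mycn are related transcription factors that bind DNA as dimers with Max and drive growth genes. Zmym2 is a zinc finger protein that binds SUMO and joins the LSD1-CoREST corepressor and the variant Polycomb complex PRC1.6. A knockout that releases the 2-cell-like state would place more of a gene's guides among the sorted cells, which is the question the comparison addresses.

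The table analysed here holds the authors' own comparison between the groups, with a single log2 fold change for a gene and nothing per library. Expression of the genes and cutting by the guides are no part of it. Depth is therefore unknown, replicate spread cannot be given, and none of the differences below carries a standard error. Evenly spread, the sorted cells come to 3.84 per library guide, about 23 for a gene with 6 guides and 15.4 for a gene with 4. Which group forms the numerator is not stated. Positive values are taken here as more guides among MERVL-positive cells. This reading is likely rather than settled, since it rests on the series title, which links Ints7 deficiency to MERVL activation, and on the high enrichment rank of Ints7 in the same data, which is therefore no independent check. If the reading is wrong, every sign below turns.

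Guides against Myc, Lin28a and Rif1 were more frequent among MERVL-positive cells by point value, while those against Mycn and Zmym2 were not. From highest to lowest, the log2 fold changes according to the authors' deposited table were 0.87 for Myc, 0.58 for Lin28a, 0.47 for Rif1, -0.09 for Mycn and -0.31 for Zmym2. As ratios these are 1.82, 1.49, 1.38, 0.942 and 0.806. No member of the 5 passed a false discovery rate of 0.05 in either direction, in a table where MAGeCK called 0% of genes for enrichment and 0.00491% for depletion. None had an unadjusted p under 0.05 either, which 5.02% of genes had for enrichment and 5.07% for depletion as listed in the authors' deposited table. Given so few sorted cells per guide, a missing call is no evidence that these knockouts left the reporter unchanged.

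No spread between libraries exists to say which neighbours in that order differ. The only yardstick is the spread from gene to gene, which is no replicate error. Among the 16270 genes with 6 guides, the log2 fold changes had an SD of 0.456, a median of -0.02 and a central 95% from -1.05 to 0.77. The gap between Rif1 and Mycn was 0.55. The other gaps were 0.29 between Myc and Lin28a, 0.11 between Lin28a and Rif1 and 0.23 between Mycn and Zmym2. That SD describes single genes, and differences within pairs of genes spread more widely. It therefore cannot show that any of these neighbours differ. Myc, with fewer guides, is not among the genes behind it. Lin28a, Rif1, Mycn and Zmym2 lay inside the central 95% of genes with 6 guides.

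**Figure D1:**
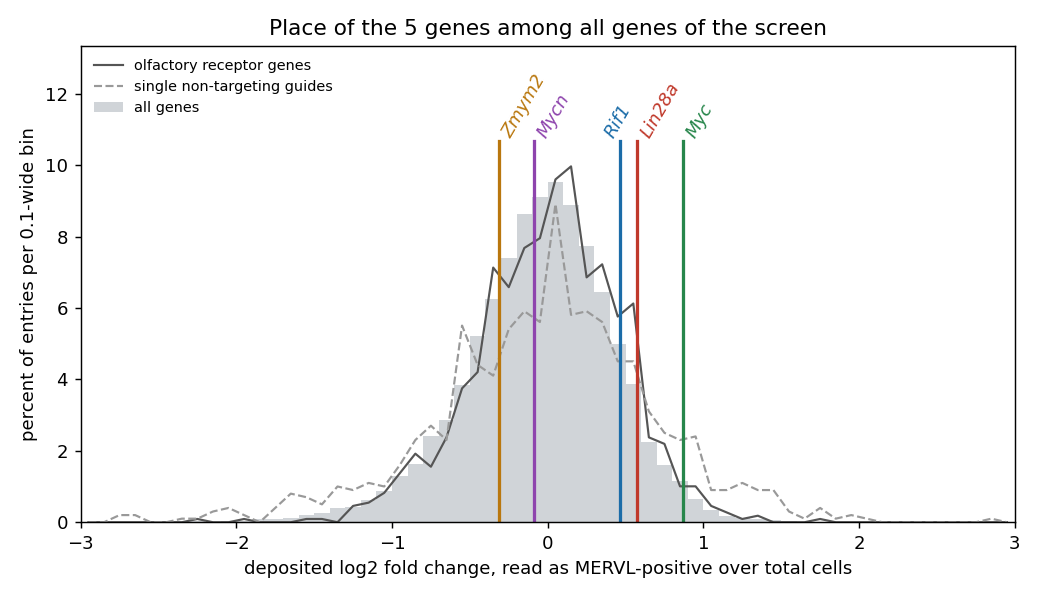
Deposited log2 fold change (x axis) of the 5 genes, drawn as vertical lines, over the distribution of all 20380 genes (grey bars), 1093 olfactory receptor genes (solid line) and 998 single non-targeting guides (dashed line), each as percent of its entries per bin (y axis). Myc at 0.87 lies in the right tail, Lin28a at 0.58 and Rif1 at 0.47 on the right shoulder, and Mycn at -0.09 and Zmym2 at -0.31 in the bulk. Beyond the axis limits lie 3 genes and 6 non-targeting guides.

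The number of guides past a threshold gives a second view of each gene. A guide is called up or down here when it passes the threshold behind the deposited guide numbers. That threshold is loose, since 37.4% of guides to all genes were up and 38.0% down per the authors' deposited table. Of the 28 guides to the 5 genes, 14 were up, 7 were down and 7 passed neither threshold according to the authors' deposited table, which is 50% up and 25% down. Rif1 and Lin28a each had 4 guides up and 1 down, Myc had 3 up and 1 down of only 4, Mycn had 2 up and 1 down, and Zmym2 had 1 up and 3 down as listed in the authors' deposited table. Every one of the 5 thus had at least 1 guide up and 1 down. The share of all genes with such mixed guides was not computed, so this cannot be read as particular to the 5.

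**Figure D2:**
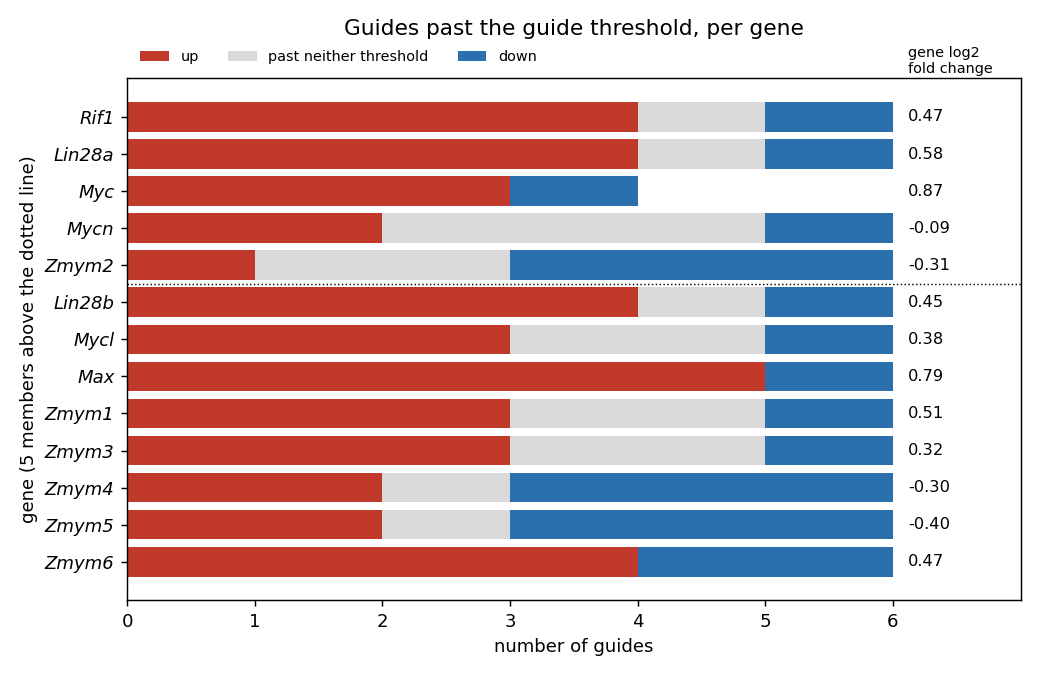
Number of guides (x axis) that were up (red), down (blue) or past neither threshold (grey) for each of the 5 genes, above the dotted line, and for their paralogs and Max below it; the number at the right is the deposited log2 fold change. Myc has 4 guides and every other gene drawn has 6; Max has 5 of 6 up, and Zmym2, Zmym4 and Zmym5 have 3 down each.

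Rif1 spans chromosome 2 from 52072815 to 52126769 (mm10). Its log2 fold change of 0.47 per the authors' deposited table was above that of 88.1% of genes, with 2419 genes higher. The enrichment p was 0.196 at rank 4116 of 22510 entries, and the false discovery rate 0.996, according to the authors' deposited table. For depletion the p was 0.882 as listed in the authors' deposited table. The pattern of 4 guides up and 1 down is common, being held by 914 genes, Rif1 included, or 5.62% of those with 6 guides. These 914 ran from 0.19 to 1.53 with a median of 0.52, so Rif1 lay in their lower part, with 547 of them higher. Of the 914, 112 had an unadjusted enrichment p under 0.05 per the authors' deposited table, or 12.3%, and Rif1 was not among them.

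The catalytic subunits of protein phosphatase 1, which Rif1 recruits, all had values above 0, as did 48% of all genes. Ppp1ca had a log2 fold change of 0.87 with 4 guides up and 2 down according to the authors' deposited table. Its unadjusted enrichment p was 0.0415 and its false discovery rate 0.985 as listed in the authors' deposited table. Ppp1cb stood at 0.75 and Ppp1cc at 0.27 per the authors' deposited table, neither with an enrichment p under 0.05. Over the 3 subunits the median was 0.75, against -0.02 over all genes.

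In the DNA end protection pathway, Mad2l2, a shieldin subunit, had a log2 fold change of 0.75 with 4 guides up and 1 down according to the authors' deposited table, and an enrichment p of 0.0598. Trp53bp1, which brings Rif1 to broken ends, had -0.17, with 1 guide up and 1 down, as listed in the authors' deposited table. Of 5 genes listed for this pathway 4 were found, and none had a p under 0.05 in either direction. Among the H3K9 methylation partners, the paired methyltransferases Ehmt1 and Ehmt2 had 0.56 and 0.60, each with 5 guides up and 1 down, per the authors' deposited table. Setdb1, another H3K9 methyltransferase, had -0.44 with none up and 4 down, and the corepressor Trim28 had -0.04, according to the authors' deposited table. None of these 4 had a p under 0.05. Dbf4 and Cdc7, regulator and kinase of the origin-firing complex that Rif1 opposes, had 0.12 and -0.20 as listed in the authors' deposited table. Counting each gene once, 9 of the 13 Rif1 partners measured lay above 0, where 48% of all genes did, and their median was 0.34. Of the 13, only Ppp1ca had an unadjusted enrichment p under 0.05, or 7.69% against 5.02% of all genes. None had a depletion p under 0.05, against 5.07% of all genes.

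Lin28a, on chromosome 4 from 134003330 to 134019196, had the smallest enrichment p of the 5 genes, 0.0551 at rank 1172, with a false discovery rate of 0.985, per the authors' deposited table. Its log2 fold change of 0.58 was above 92.7% of genes, with 1477 higher. By guides it had the same pattern as Rif1, and 334 of the 914 genes with that pattern had a higher value. The paralog Lin28b, which also blocks let-7, had 0.45, again with 4 guides up and 1 down, and an enrichment p of 0.209 according to the authors' deposited table. Lin28b was above 87.1% of genes, close to Rif1 at 88.1%.

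Enzymes that act after Lin28 has bound the let-7 precursor gave values on both sides of 0. Zcchc11 (Tut4), which adds uridines to the bound precursor, had a log2 fold change of 0.81, and 3 of its 5 guides were up, as listed in the authors' deposited table. Dis3l2, the nuclease that degrades the tailed precursor, had -0.74 with 1 guide up and 5 down and a depletion p of 0.0577 per the authors' deposited table. In the general microRNA pathway, the exporter Xpo5 had 0.45 with 5 guides up and none down according to the authors' deposited table. Dgcr8, the RNA-binding partner in the nuclear cleavage step, had the lowest value of all partner genes, -1.53 with none up and 4 down, as listed in the authors' deposited table, and a depletion p of 0.0847. The nucleolar partner Ncl, nucleolin, had 0.27 and an enrichment p of 0.0585 per the authors' deposited table. Among genes whose mRNAs let-7 represses, values ran from 0.32 for Trim71, a regulator of stem cell mRNAs, to -0.66 for Igf2bp1, an mRNA-binding protein, according to the authors' deposited table. None of the 13 genes in the Lin28 lists had a p under 0.05 in either direction, and their median was 0.21. Over all genes such a p was found for 5.02% for enrichment and 5.07% for depletion.

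The let-7 microRNAs that Lin28 holds back were themselves targeted by guides in 13 entries. Their seed is shown because microRNAs with the same seed recognise overlapping sets of mRNAs, whereas their loci differ. Whether guides of one entry also match another was not tested, since guide sequences were not used here. RefSeq (GRCm38.p6) hairpins matched 11 of the 13, and a mature 5p sequence was listed for 10, all with the same seed. The first 2 sequences belong to the entries with an enrichment p under 0.05, the third to a close neighbour of the first in the genome, and the last to the entry with the lowest value. Capitals mark the seed, bases 2 to 8, written 5′ to 3′.
let-7a-1: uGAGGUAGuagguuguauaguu
let-7b: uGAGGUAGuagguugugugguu
let-7f-1: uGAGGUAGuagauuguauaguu
let-7g: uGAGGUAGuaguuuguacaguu

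The let-7 entries had values on both sides of 0, also among the 10 for which the common seed was listed. Counts below cover all 13 entries, including those without a listed seed. The entry for let-7a-1 had a log2 fold change of 0.75, all 4 guides up and an enrichment p of 0.0357 as listed in the authors' deposited table. For let-7b the value was 0.57 with 2 guides up and 2 down and an enrichment p of 0.0173 per the authors' deposited table. Both had a false discovery rate of 0.985 according to the authors' deposited table. The lowest value was -0.75 for let-7g, with 1 guide up and 2 down, as listed in the authors' deposited table. On chromosome 13 the hairpins of let-7d, let-7f-1 and let-7a-1 lie within 2261 bases, from 48536012 to 48538272. Within that stretch let-7a-1 had 0.75, let-7d 0.43 and let-7f-1 -0.59 per the authors' deposited table, and let-7f-1 had 3 of its 4 guides down. Of the 13 entries, 9 lay above 0, or 69.2% against 51.1% of all microRNAs. An enrichment p under 0.05 was found for 2, or 15.4% of this short list against 4.59% of microRNAs. None had a depletion p under 0.05, against 4.77%. Their median was 0.19, and that of all microRNAs 0.02.

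Myc, on chromosome 15 from 61985341 to 61990361, had the largest log2 fold change of the 5 genes, above 98.1% of all genes, with 380 higher. It also had the fewest guides, 4, and values of genes with 4 guides spread more widely, with an SD of 0.559 over 446 genes. Their central 95% ran from -1.39 to 0.87, and Myc fell on its upper edge, with 11 of the 446 higher. By p it stood lower, since the enrichment p was 0.106 at rank 2659, and the false discovery rate 0.996, according to the authors' deposited table. Of the 4 guides, 3 were up and 1 was down as listed in the authors' deposited table, a pattern held by 29 genes, Myc included, or 6.5% of those with 4 guides. Among the 29, 5 had a higher value than Myc, and 2 had an unadjusted enrichment p under 0.05 per the authors' deposited table.

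Mycn, on chromosome 12 from 12936093 to 12941836, did not share the value of Myc. Its log2 fold change of -0.09 according to the authors' deposited table was near the middle of the genes, above 44.0% of them. The enrichment p was 0.718 at rank 15767 and the depletion p 0.843 as listed in the authors' deposited table. Among 6 guides, 3 passed neither threshold, the most of the 5 genes, per the authors' deposited table. The pattern of Mycn, 2 up and 1 down, is held by 784 genes, Mycn included, or 4.82% of those with 6 guides. Their median was 0.06, and 713 of them had a higher value than Mycn. Mycn stood 0.95 below Myc on the log2 scale, a difference that cannot be tested without values per library. The third paralog, Mycl, had 0.38 with 3 guides up and 1 down and an enrichment p of 0.189 according to the authors' deposited table, between the other two.

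Max, the partner that all Myc proteins need to bind DNA, had a log2 fold change of 0.79, and 5 of its 6 guides were up and 1 down, as listed in the authors' deposited table. The enrichment p was 0.0190 at rank 394, and the false discovery rate 0.985, per the authors' deposited table. Max lay above 97.2% of genes, and it is also a subunit of PRC1.6, so its value belongs to the Myc and the Zmym2 lists alike. Of the 11 dimer partners and antagonists in the network, Max included, 5 lay above 0, and the median was -0.09. Lowest was Mlxipl, a glucose-responsive factor of the related Mlx branch, at -0.77 with none up and 4 down according to the authors' deposited table. Among coactivators, the acetyltransferase Kat5 was highest at 0.50 as listed in the authors' deposited table. The helicases Ruvbl1 and Ruvbl2, shared by several chromatin complexes, were lowest at -1.35 and -1.38, each with 1 guide up and 4 down, per the authors' deposited table. For Ruvbl1 the depletion p was 0.0405 and the false discovery rate 0.975 according to the authors' deposited table. Of genes that control Myc protein turnover, Usp28, a deubiquitinase, had 0.59 and Aurka, a kinase that stabilises Mycn, had -0.58 as listed in the authors' deposited table. Over the 22 genes of the Myc lists the median was 0.03, with 1 enrichment and 1 depletion p under 0.05. That is 4.55% in each direction, near the 5.02% and 5.07% of all genes.

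Zmym2, on chromosome 14 from 56886529 to 56962358, had the lowest value of the 5 genes, -0.31, above 26.1% of genes. The enrichment p was 0.870 at rank 19454 and the depletion p 0.562 at rank 12071 per the authors' deposited table. Its 1 guide up and 3 down are held by 1232 genes, Zmym2 included, or 7.57% of those with 6 guides, whose median was -0.33. Within the MYM family, Zmym1 had 0.51, Zmym6 0.47, Zmym3 0.32, Zmym4 -0.30 and Zmym5 -0.40 according to the authors' deposited table. None of these paralogs had a p under 0.05 in either direction. For Zmym5 the deposited measures diverged, with the lowest value of the family beside its smallest enrichment p, 0.101, as listed in the authors' deposited table.

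Partners of Zmym2 in corepressor complexes included the highest values among all genes listed here. Hmg20b, a DNA-binding subunit of LSD1-CoREST, had a log2 fold change of 1.16 with 5 guides up and 1 down per the authors' deposited table. Its enrichment p was 0.00969 at rank 209, with a false discovery rate of 0.949, according to the authors' deposited table. The deacetylase Hdac1, of the same complex, was lowest at -0.70 with none of 5 guides up and 4 down as listed in the authors' deposited table. Of the 10 LSD1-CoREST genes 8 lay above 0, against 48% of all genes, with a median of 0.14. Some of the 8 were close to 0, the lowest of them at 0.01. Of the guides to the 10 genes 43.1% were up and 34.5% down, against 37.4% and 38.0% of guides to all genes. Hmg20b was the one of the 10 with an enrichment p under 0.05, a share of 10% against 5.02%. In PRC1.6, the ubiquitin ligase Rnf2 had 1.10 and an enrichment p of 0.00165 per the authors' deposited table, and Max was the other of its 11 genes under 0.05. That is 18.2% of this short list, against 5.02% of all genes. Of the 11, 6 lay above 0, or 54.5% against 48%. Cbx3, the heterochromatin protein HP1 gamma, was lowest at -1.44 with 5 of 6 guides down according to the authors' deposited table. For SUMO, which Zmym2 binds, the modifier Sumo2 had the highest value of the list, 0.42, as listed in the authors' deposited table. Sumo2 had 4 guides up and none down per the authors' deposited table. Of the 5 SUMO genes 2 lay above 0, or 40% against 48% of all genes, with a median of -0.06. No gene of the list had a p under 0.05.

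**Figure D3:**
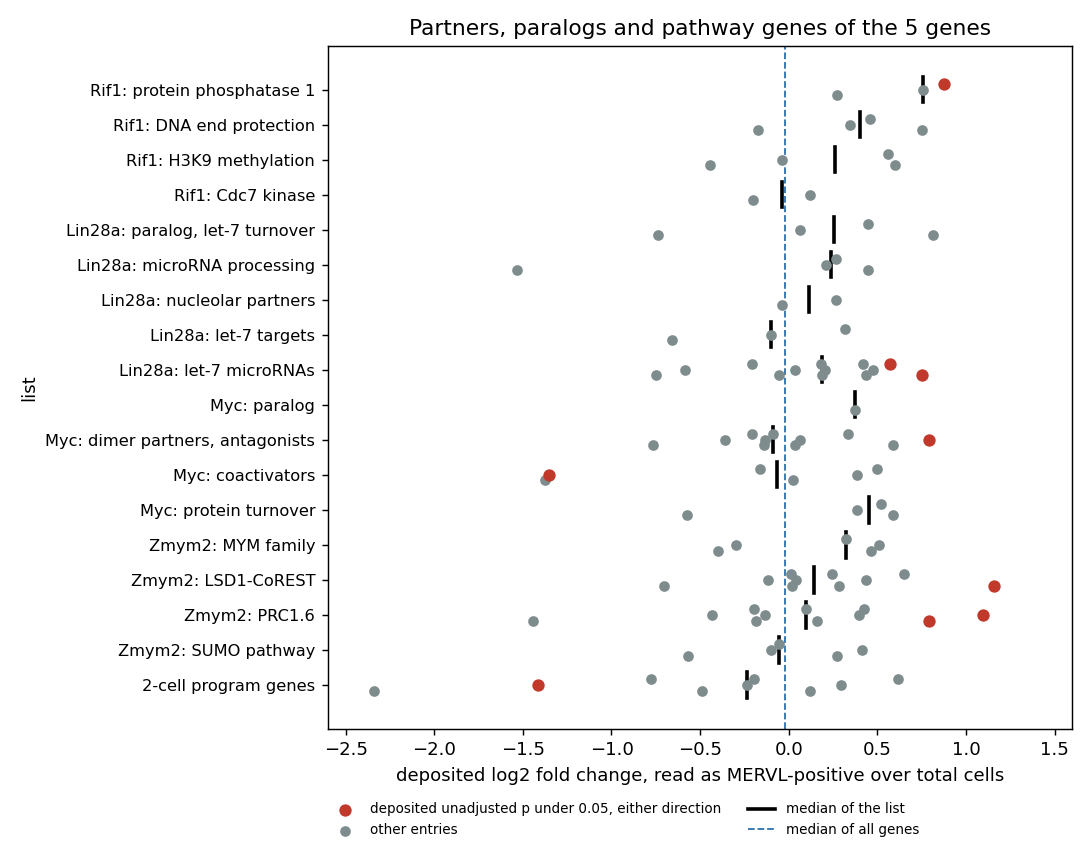
Deposited log2 fold change (x axis) of each gene or microRNA entry in the lists of partners, paralogs and pathway genes (y axis). Points are entries, red where an unadjusted deposited p in either direction was under 0.05; black bars are list medians and the dashed line is the median of all genes, -0.02. List medians lie from 0.75 for protein phosphatase 1 to -0.24 for the 2-cell program, and most lists hold entries on both sides of 0.

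Over all partner lists, with each gene counted once, 76 of 77 genes were found. Of these, 47 lay above 0, or 61.8% against 48% of all genes, with a median of 0.14. Unadjusted enrichment p-values under 0.05 belonged to 4 of the 76, which are Ppp1ca, Max, Hmg20b and Rnf2, or 5.26% against 5.02% of all genes per the authors' deposited table. For depletion only Ruvbl1 was under 0.05, 1 of the 76 or 1.32%, against 5.07%. None of the 76 passed a false discovery rate of 0.05 in either direction, nor did any let-7 entry. The share with an enrichment p under 0.05 is thus near the background.

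Genes listed for the 2-cell program, not all of which these repressors are reported to hold down, were targeted as well. Their 9 entries had a median of -0.24, with 3 above 0, or 33.3% against 48% of all genes. Their transcription factor Dux stood at -1.41, all 3 guides being down and the depletion p 0.00419, per the authors' deposited table. Its false discovery rate was 0.846, so it was not called, and it was the 1 entry of the 9 with a depletion p under 0.05, or 11.1% against 5.07% of all genes, per the authors' deposited table. Zscan4e, at 0.62, and Zscan4f, at -2.34, had the extreme values with 1 guide each as listed in the authors' deposited table. Dux and the Zscan4 genes have near-identical copies that guides may share, so their values are uncertain.

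Set beside Ints7, the gene in the series title, the 5 genes show how far the 2 orders of the table can part. Ints7 had a log2 fold change of 0.14, below Myc, Lin28a and Rif1, yet an enrichment p of 0.00714 at rank 157, ahead of all 5, per the authors' deposited table. Of the 16270 genes with 6 guides, 5520 had a higher value than Ints7. Lin28a had more guides up than Ints7, 4 against 3, with 1 down in both, according to the authors' deposited table. Neither gene was called at a false discovery rate of 0.05.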

How the data were processed

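Guide DNA from 4 libraries was amplified by PCR from genomic DNA, per the labels. MAGeCK and the mm10 build are named, per the submitters' processing notes, while version, settings and normalization were not found in any source used here. The authors deposited 1 table with, per entry and direction, a score (not used here), a p-value, a false discovery rate, a rank and a number of guides past a threshold, per the file headers. They also deposited a log2 fold change, per the file headers, with identical values in both of its columns. Log base 2 is MAGeCK's own and is not in the header. A Benjamini-Hochberg adjustment over all 22510 entries gave the deposited false discovery rates to within 2.88e-05 for enrichment and 4.35e-05 for depletion.

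No test was run beyond the deposited ones. Percentiles, medians and counts were computed with pandas 2.3.3, and the adjustment function was tested on simulated data. Calls used a threshold of 0.05. Gene positions came from RefSeq for GRCm38.p6, the assembly of mm10. Guide and protein sequences were not used here. The 5 genes and the lists of their partners were chosen with earlier results of these data known. Named beside the 5 were, from each list, the highest and lowest entry, every entry with an unadjusted p under 0.05, the paralogs, Max and Ints7. The lowest entry of the SUMO list is not reported here. Ppp1cb, Ehmt1, let-7d, let-7f-1 and Ring1 were added after their values were seen. Alternative backgrounds, centrings, orders and adjustments were tried.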

Additional observations from a re-analysis of the deposited data

How the results depend on the processing

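No paired analysis was possible because the table holds no value per library, and for the same reason no library could be left out. False discovery rates of the 5 genes were readjusted over genes alone and over genes with 4 or more guides. All 20 were 0.981 or higher. A readjusted value is never below its own unadjusted p, and none of the 5 genes had such a p under the threshold for calls. Readjustment could therefore make no call, and there was none to end, so it tests nothing about the missing calls. Centring on non-targeting guides or on all genes shifts every value by about 0.02, less than the distance of any of the 5 genes from 0, and so tests nothing about their signs. The percentile of a gene depended more on the order than on the background. Genes were also ordered by deposited enrichment rank instead of log2 fold change, and that rank does not strictly follow the enrichment p. By that order the share of genes below was 81.1% for Rif1, 94.5% for Lin28a, 87.7% for Myc, 29.2% for Mycn and 13.3% for Zmym2. By log2 fold change against olfactory receptor genes, the shares were 84.4%, 91.1%, 97.5%, 40.1% and 23.9% for the genes in the same sequence. Among genes with equal guide numbers they were 89.0% for Rif1, 93.5% for Lin28a and 97.3% for Myc, and over all entries 87.3%, 92.0% and 97.7%. Without Ring1, which has 3 guides, the PRC1.6 median turned from 0.10 to -0.020, so that list has no settled sign. The 2-cell program and let-7 lists were the other two with entries under 4 guides, and without these their medians were -0.22 and 0.18. Low numbers of sorted cells per guide limit every value.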
